A study of Homo sapiens with 6 samples.

Results

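Proteasome genes were followed in SH-SY5Y cells, a human neuroblastoma cell line, after overexpression of estrogen-related receptor gamma, a nuclear receptor encoded by *ESRRG*. They were taken as the protein-coding genes named PSM, a letter from A to G and a number, which gave 48 of the 67060 genes in the deposited count table. Control cells received the adenovirus Ad CMV GFP, which carries green fluorescent protein, and the other cells received Ad CMV 3xFlag-*Esrrg*, which carries the coding sequence of mouse *Esrrg* with a Flag tag. Both transgenes were driven by the viral CMV promoter, 0.5 ul of virus was given, and total RNA was collected 24 h later and depleted of ribosomal RNA. Each group had 3 libraries, with replicate numbers 1, 3 and 4 in the Ad CMV GFP group but 2, 3 and 4 in the other. No label states whether these were separate cultures, so the p-values measure the spread between these libraries, which may be technical. The question was which proteasome genes changed with *Esrrg* overexpression, and whether the core, the base, the lid and the activators changed alike.

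The proteasome degrades proteins that carry ubiquitin chains. Its barrel-shaped core has outer rings of alpha subunits (*PSMA* genes), which gate the entry, and inner rings of beta subunits (*PSMB* genes), some of which cut peptide bonds. A cap made of a base (ATPases of the *PSMC* genes and scaffold subunits) and a lid (other *PSMD* genes) binds the substrate, removes ubiquitin and unfolds the chain. Neurons depend on it to clear misfolded proteins, and its loss is a recurring theme in studies of neurodegeneration.

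Reads counted on genes ranged from 24969759 to 29700980 per Ad CMV GFP library and from 26513620 to 40859666 per Ad CMV 3xFlag-*Esrrg* library. *ESRRG* itself rose from 87.0 ± 3.40 to 706 ± 119 normalized counts per 1000000 (CPM, scaled by edgeR's TMM factors; mean ± SD, n = 3 here and below), though reads of the mouse transgene had to align to the human gene to be counted. Reads that fell in no annotated gene made up 51.3% to 52.2% of the Ad CMV GFP libraries, but 46.6%, 31.6% and 29.5% of Ad CMV 3xFlag-*Esrrg* replicates 2, 3 and 4, so replicate 2 stood closer to the controls. Of 10 adrenergic neuroblastoma markers, 8 were detected, of which 2 were called lower (*DBH*, log2 fold change -2.64, and *STMN2*, -0.68) and 2 higher (*PHOX2A*, 0.81, and *NEFM*, 0.94), with a summed level of 796 to 847 CPM in the controls and 591 to 779 CPM with Ad CMV 3xFlag-*Esrrg*, and *TH* and *CHGA* had 0 counts in all libraries; their adjacent genes were at or under 3 counts too, in runs of 5 and 28 protein-coding genes. The summed level of 4 fibroblast markers was 703 to 747 CPM with Ad CMV GFP and 477 to 547 CPM with Ad CMV 3xFlag-*Esrrg*. Of these, *COL1A2* (log2 fold change -1.47), *DCN* (-0.76) and *LUM* (-1.15) were called lower and *COL1A1* (-0.16) was not. The summed level of 4 immune markers stayed under 0.8 CPM, with *CD3E* at 0. That of 3 endothelial markers was 0.906 to 1.58 CPM in the controls and 1.87 to 2.23 CPM with Ad CMV 3xFlag-*Esrrg*, with *PECAM1* called higher (0.87). For 3 epithelial markers, none called, it was 2.99 to 3.59 CPM over all libraries. Their part in the results was not tested. In bulk RNA, fewer cells of a type and less RNA per cell cannot be told apart.

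Many proteasome genes rose on infection with Ad CMV 3xFlag-*Esrrg*, and none fell. Of the 48, 40 had enough counts to be tested, and 21 of these rose by at least 1.5-fold at an adjusted p below 0.05 (edgeR quasi-likelihood test, Benjamini-Hochberg adjustment over 24500 genes). The count of lower genes was 0 (0 by edgeR, 0 by DESeq2, and 0 at an unadjusted p below 0.05), whereas 16.8% of all tested genes and 12.4% of protein-coding genes were called lower. The same criterion called 17.3% of all tested genes and 25.9% of the 13746 tested protein-coding genes higher, against 52.5% of the tested proteasome genes. The median log2 fold change was 0.70 over the proteasome genes, -0.10 over all tested genes and 0.12 over protein-coding genes. A further 9 genes had an adjusted p below 0.05 but changed by less than 1.5-fold, and 10 did not pass. By adjusted p alone, 30 of the 40 were thus higher and 0 lower, against 24.3% higher and 23.5% lower over all genes and 37.6% and 22.4% over protein-coding genes. In 33 of the 40 genes all Ad CMV 3xFlag-*Esrrg* libraries lay above all Ad CMV GFP libraries, which was true of 27.8% of all tested genes and 41.9% of protein-coding genes. The reverse order held for none of the 40, for 30.3% of all genes and for 28.4% of protein-coding genes.

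Together, the 48 genes took 0.329%, 0.360% and 0.350% of the counts on genes in the Ad CMV GFP libraries and 0.468%, 0.557% and 0.552% in Ad CMV 3xFlag-*Esrrg* replicates 2, 3 and 4. This share does not depend on the TMM scaling. The groups did not overlap, and the ratio of their means was 1.52. Ad CMV 3xFlag-*Esrrg* replicate 2 gave the smallest difference from the controls: it was below replicates 3 and 4 in 36 of the 40 tested genes, and above every control in 34. It was above every control in 47.1% of protein-coding genes. The median ratio to the control mean was 1.37 in replicate 2 and 1.76 in the mean of replicates 3 and 4, beside 1.04 and 1.12 over tested protein-coding genes. Without replicate 2, 27 genes were called higher, adding *PSMA1*, *PSMC1*, *PSMD1*, *PSMD5*, *PSMG1* and *PSMG4*; 22.9% of all genes and 34.1% of protein-coding genes were then called higher. The share of reads outside genes moved with these levels library by library, and the share and the virus cannot be told apart. With that share added to the fit, only 5 genes (*PSMB5*, *PSMD2*, *PSMD3*, *PSMD8* and *PSME3*) were called higher, 12.5% of those tested, against 7.24% of all genes and 9.48% of protein-coding genes, while 22 had an adjusted p below 0.05. All 21 genes called before kept a positive log2 fold change in this fit, from 0.21 to 0.81.

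**Figure D1:**
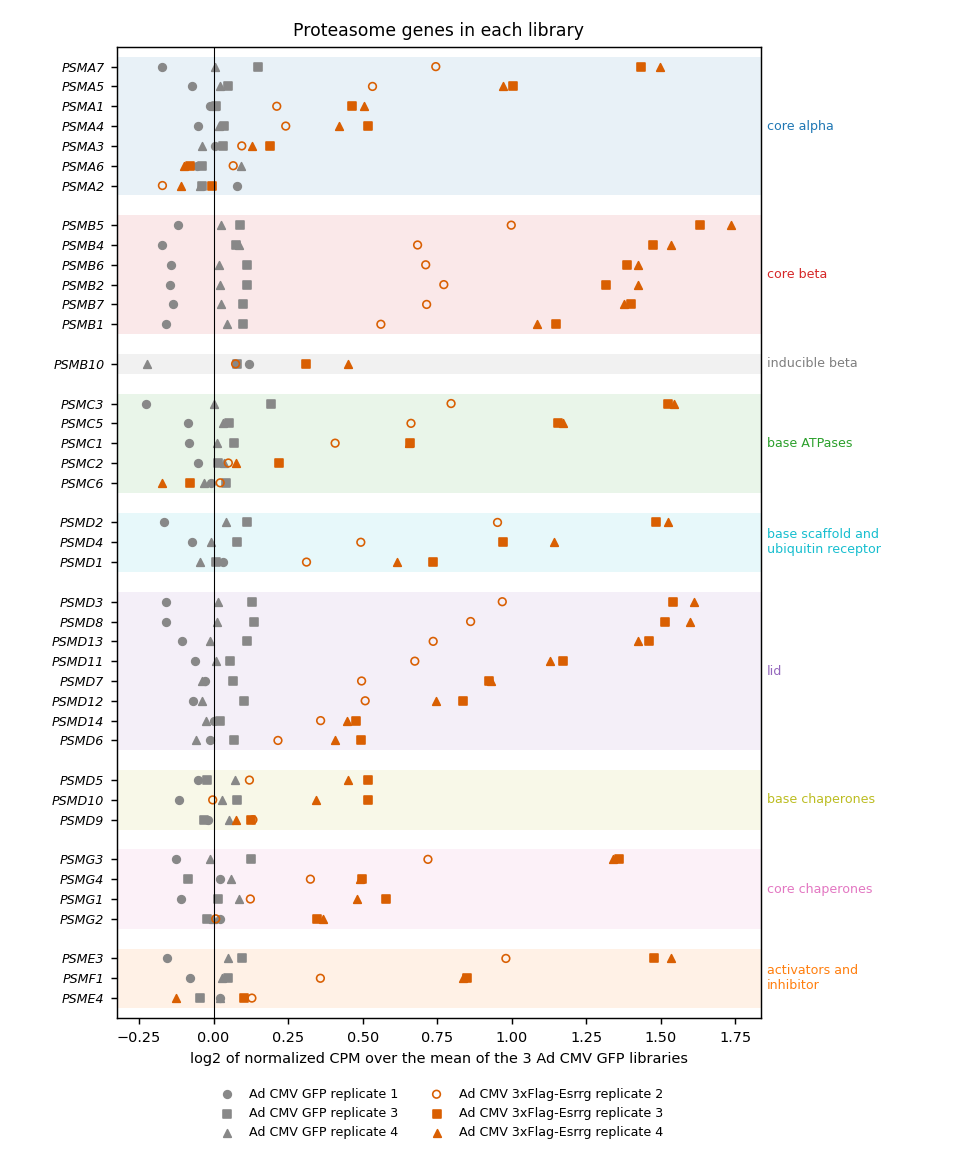
Each point is the normalized CPM of a proteasome gene in a library, as the log2 ratio to the mean of the 3 Ad CMV GFP libraries (x axis), for the 40 tested genes by role (rows). Grey points are Ad CMV GFP and orange points Ad CMV 3xFlag-*Esrrg*; the open circles of replicate 2 lie between the control mean and the mean of the other orange points in 34 of the 40 genes.

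**Figure D2:**
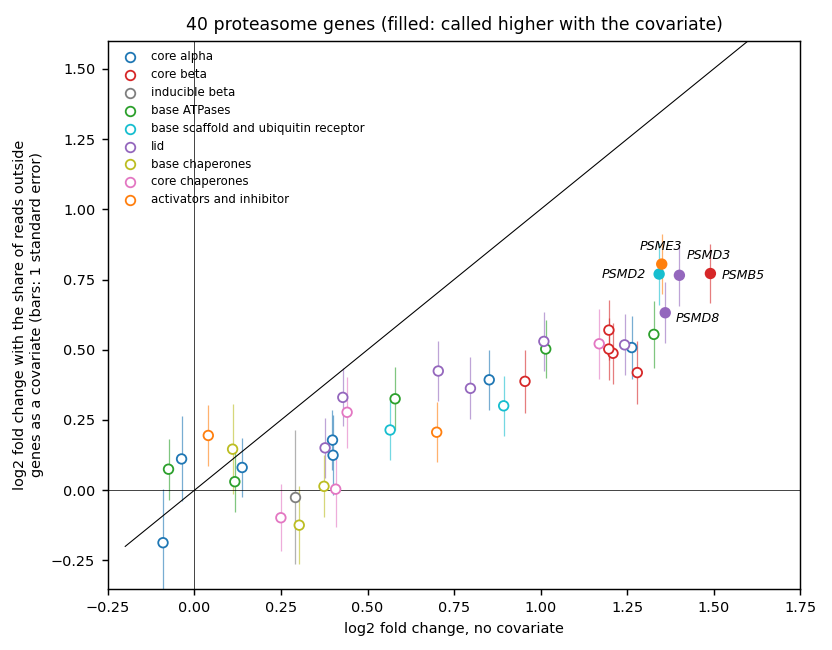
Log2 fold changes of the 40 tested genes before (x axis) and after (y axis) the share of reads in no gene was added to the fit as a covariate; bars are 1 standard error and the diagonal marks equal values. All 21 genes called without the covariate fall below the diagonal, and 5 of them, the filled points, are still called.

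Promoters were read for letters that bear on known regulators of these genes. Estrogen-related receptors bind AAGGTCA, often as TCAAGGTCA, and proteasome genes are textbook targets of NFE2L1, which binds antioxidant response elements. These elements were searched in the loose form TGANNNNGC, and a match need not be such an element. RefSeq promoters of build GRCh38.p14, 250 bases before to 50 bases after a transcript start, were found for 42 of the 48 genes (51 promoters, since 8 genes had several starts); *PSMA7*, *PSMB1*, *PSMB6*, *PSMB7*, *PSMD4* and *PSMG3* had no entry. On both strands, AAGGTCA occurred in 1 of the 51 promoters (1.96%) and in 3.92% of 35116 promoters of the same length, and TCAAGGTCA in 0 of 51 and 0.353%. TGANNNNGC occurred in 32 of 51 (62.7%), against 41.8% of all promoters. By gene, that form was found for 10 of the 15 called genes with a promoter entry, 10 of the 19 tested but not called and 8 of the 8 not tested. CCAAT, the box bound by NF-Y, occurred in 20 of 51 (39.2%), against 34.6%, and 2 matches of TGANNNNGC overlapped one of CCAAT. A match is a description of the letters and not evidence of binding. The stretches with matches are shown for 3 called core genes that hold more than 1 TGANNNNGC, with the AAGGTCA of *PSMD2*. Genes that were not called held several too, such as *PSMD9* (4) and *PSMD5* (3). Capitals mark the match on either strand, and each sequence is read along the gene, 5′ to 3′. The stretch of *PSMA5* spans chr1:109426505-109426698 (minus strand), that of *PSMB4* chr1:151399394-151399572 (plus strand), that of *PSMB5* chr14:23035298-23035373 (minus strand, before the upstream start of the 2 listed) and that of *PSMD2* chr3:184300597-184300623 (plus strand, match at position 26 after the start). For *PSMD2* this is the downstream start of the 2 listed, and the promoter of the upstream start held no AAGGTCA.
PSMA5: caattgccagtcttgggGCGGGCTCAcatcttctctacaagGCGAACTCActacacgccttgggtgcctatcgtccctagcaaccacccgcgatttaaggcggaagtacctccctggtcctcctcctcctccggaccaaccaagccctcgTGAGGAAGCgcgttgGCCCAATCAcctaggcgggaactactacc
PSMB4: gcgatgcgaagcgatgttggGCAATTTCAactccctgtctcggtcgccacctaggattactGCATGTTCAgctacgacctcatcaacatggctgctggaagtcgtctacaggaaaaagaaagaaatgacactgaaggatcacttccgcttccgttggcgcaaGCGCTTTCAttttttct
PSMB5: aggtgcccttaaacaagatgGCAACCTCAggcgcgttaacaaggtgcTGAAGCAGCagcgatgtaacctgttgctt
PSMD2: agctgaaaggAAGGTCAgcttctcaga

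All 6 tested beta subunits of the constitutive core rose (100%, against 25.9% of protein-coding genes). The 6 log2 fold changes ran from 0.95 to 1.49, with a median of 1.20. *PSMB5*, which carries the chymotrypsin-like activity, had the largest log2 fold change of all proteasome genes. Its level was 77.3, 89.4 and 85.4 CPM in the Ad CMV GFP libraries and 168, 261 and 280 CPM in Ad CMV 3xFlag-*Esrrg* replicates 2, 3 and 4 (log2 fold change 1.49, SE 0.17, adjusted p = 0.000104 by edgeR). *PSMB6*, the caspase-like subunit, measured 48.6, 57.8 and 54.3 CPM against 87.7, 140 and 144 CPM (log2 fold change 1.21). *PSMB7*, the trypsin-like subunit, measured 91.4, 108 and 102 CPM against 165, 265 and 261 CPM (log2 fold change 1.20). For all 3 catalytic subunits the lowest treated library, replicate 2, was still 1.64 to 1.998 times the control mean. The non-catalytic beta subunits moved the same way. *PSMB4* went from 183, 218 and 219 CPM to 332, 573 and 598 CPM (log2 fold change 1.28), and *PSMB2* from 92.7, 111 and 104 CPM to 175, 256 and 275 CPM (log2 fold change 1.20). *PSMB1* had the smallest difference of the group, with 91.3, 109 and 105 CPM against 150, 226 and 216 CPM (log2 fold change 0.95). In all 6 tested beta subunits every treated library lay above every control, which was true of 41.9% of protein-coding genes. *PSMB3*, also a part of every core, had 0 counts in all 6 libraries and gave no measurement.

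The alpha subunits were split. Of 7 tested, 2 (28.6%) rose, near the 25.9% of protein-coding genes, and the median log2 fold change was 0.40. *PSMA7* measured 114, 143 and 129 CPM against 216, 348 and 364 CPM (log2 fold change 1.26, SE 0.18, adjusted p = 0.000332). *PSMA5* measured 49.1, 53.3 and 52.4 CPM against 74.6, 103 and 101 CPM (log2 fold change 0.85). Both groups were well separated for these genes. *PSMA1* (log2 fold change 0.40, adjusted p = 0.0121) and *PSMA4* (0.40, adjusted p = 0.00722) passed the p-value but not the 1.5-fold criterion in edgeR. *PSMA3* measured 75.9, 77.2 and 73.7 CPM against 80.8, 86.2 and 82.6 CPM, a log2 fold change of 0.14 that did not pass (adjusted p = 0.207). *PSMA2* (8.58, 7.92 and 7.88 CPM against 7.22, 8.11 and 7.54 CPM) and *PSMA6* (13.1, 13.3 and 14.5 CPM against 14.3, 12.9 and 12.7 CPM) overlapped between the groups, with log2 fold changes of -0.09 and -0.04, whose sign turned under several of the other settings. Thus within the core alone the log2 fold changes spanned -0.09 to 1.49, although the particle holds its alpha and beta subunits in equal number.

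For *PSMA1*, *PSMA2* and *PSMA6*, the read counts themselves are in doubt. Per kilobase of canonical transcript, the control level was 5.67 CPM for *PSMA2*, 11.7 CPM for *PSMA1* and 13.3 CPM for *PSMA6*, the lowest of the tested alpha subunits and followed by *PSMA5* (13.5 CPM), while *PSMA7* stood at 134 CPM and *PSMB4* at 225 CPM. In GENCODE release 44, same-strand readthrough genes cover 67.0% of the canonical transcript of *PSMA1*, 100% of that of *PSMA2* and 81.4% of that of *PSMA6*, and reads that fit 2 genes are counted for neither. The readthrough genes held 0 to 5 counts per library. In *PSMA6*, 46.3% of the words of 31 bases recur elsewhere in the primary assembly, where reads align to several places. Ambiguous reads made up 4.55% to 4.87% of the Ad CMV GFP libraries and 5.69% to 9.84% of the Ad CMV 3xFlag-*Esrrg* libraries, and reads aligned to several places 7.16% to 7.41% and 9.33% to 13.04%. How far this set the values of these 3 genes was not tested.

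**Figure D3:**
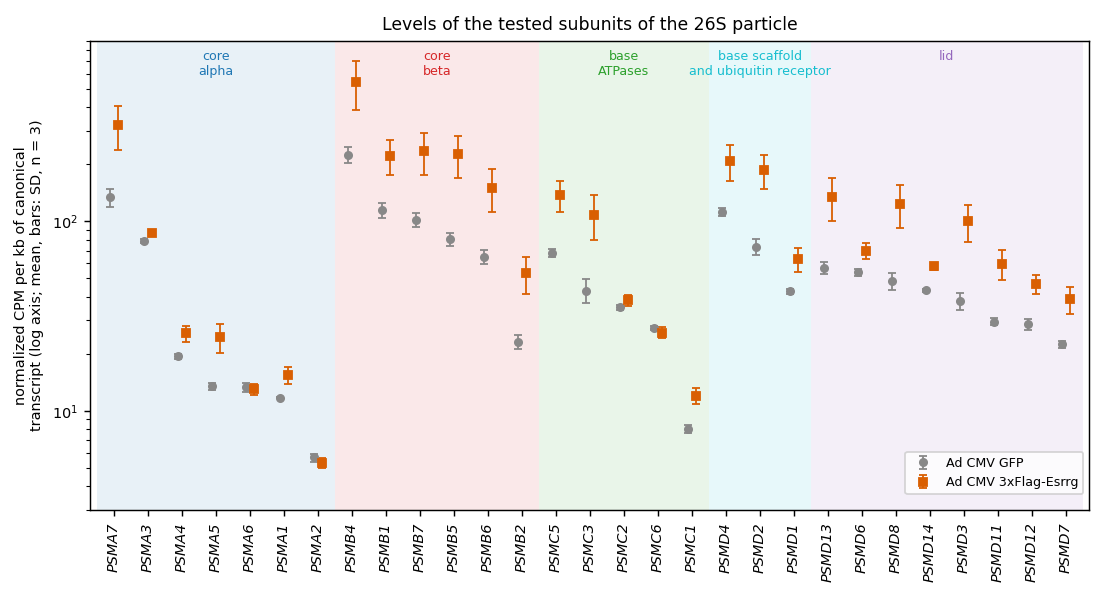
Levels of the tested core, base and lid subunits as normalized CPM per kilobase of canonical transcript (y axis, log scale; mean and SD, n = 3), grey for Ad CMV GFP and orange for Ad CMV 3xFlag-*Esrrg*. The beta subunits are higher with Ad CMV 3xFlag-*Esrrg* throughout, while *PSMA2*, *PSMA6* and *PSMC6* lie on their control levels.

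In the base, 4 of 8 tested genes (50%) rose, against 25.9% of protein-coding genes, and the median log2 fold change was 0.74. The ATPases, which unfold the substrate, differed among themselves in spite of forming a single ring. *PSMC3* measured 56.9, 76.0 and 66.6 CPM against 115, 191 and 194 CPM (log2 fold change 1.33, SE 0.19, adjusted p = 0.000309). *PSMC5* measured 85.3, 93.8 and 92.5 CPM against 143, 202 and 204 CPM (log2 fold change 1.01). Both were well clear of the controls in every library. *PSMC1* missed the fold criterion narrowly (33.2, 36.9 and 35.5 CPM against 46.7, 55.6 and 55.5 CPM; 1.49-fold, adjusted p = 0.00106) and was called without Ad CMV GFP replicate 3 or 4. *PSMC2* measured 92.5, 96.7 and 98.2 CPM against 99.1, 111 and 101 CPM, and its log2 fold change of 0.12 did not pass. *PSMC6*, at 58.6, 60.7 and 57.7 CPM against 59.9, 55.9 and 52.3 CPM, had a log2 fold change of -0.07 (adjusted p = 0.519). These last genes differed from their controls by less than 1.2-fold in every library. *PSMC4*, the remaining ATPase, had 0 or 1 count per library.

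Of the 3 scaffold and receptor subunits of the base, 2 (66.7%) rose, against 25.9% of protein-coding genes. *PSMD2*, the scaffold subunit at which substrate carriers dock, measured 190, 231 and 220 CPM against 413, 597 and 615 CPM (log2 fold change 1.34, SE 0.16, adjusted p = 0.000112). *PSMD4*, a receptor for ubiquitin chains, measured 141, 157 and 147 CPM against 209, 290 and 327 CPM (log2 fold change 0.89). *PSMD1*, the larger scaffold subunit, was higher in each treated library (145, 143 and 138 CPM against 176, 236 and 218 CPM) but by 1.48-fold, under the fold criterion (adjusted p = 0.00266). Parts of the transcripts of *PSMC1* (42.2% of words), *PSMC6* (43.5%) and *PSMD4* (42.4%) recur elsewhere in the genome, and reads from there align to several places. Genes on the opposite strand overlap 83.2% of the transcript of *PSMC1* and 51.6% of that of *PSMD7*, a lid gene; whether the counting used strand is not given in the sources used here.

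The lid had 8 tested genes, of which 6 (75%) rose, against 25.9% of protein-coding genes. The median log2 fold change of the 8 was 0.90. *PSMD3* measured 72.9, 89.1 and 82.3 CPM against 159, 237 and 249 CPM (log2 fold change 1.40, SE 0.16, adjusted p = 0.000105), the largest difference among the lid genes. *PSMD8* measured 65.6, 80.5 and 73.9 CPM against 133, 209 and 222 CPM (log2 fold change 1.36), and *PSMD13* 84.2, 97.9 and 89.9 CPM against 151, 249 and 243 CPM (log2 fold change 1.24). These are structural subunits that hold the lid together. *PSMD11* measured 109, 118 and 114 CPM against 182, 257 and 249 CPM (log2 fold change 1.01), *PSMD7*, the partner of the deubiquitinating subunit, 35.9, 38.2 and 35.6 CPM against 51.6, 69.3 and 69.6 CPM (0.80), and *PSMD12* 119, 134 and 121 CPM against 177, 223 and 209 CPM (0.70). The remaining pair changed less. *PSMD14*, the subunit that cuts ubiquitin chains from the substrate, measured 67.8, 68.7 and 66.5 CPM against 86.8, 94.2 and 92.2 CPM (log2 fold change 0.43, adjusted p = 0.00231), and *PSMD6* 72.7, 76.98 and 70.4 CPM against 85.2, 103 and 97.3 CPM (0.38, adjusted p = 0.0103). In all 8 lid genes every treated library lay above every control, which was true of 41.9% of protein-coding genes. Per kilobase, lid genes also lay closest together, with a 2.54-fold range between the highest and lowest control level, against 14.0-fold in the base and 39.7-fold in the core, or 16.6-fold in the core without *PSMA1*, *PSMA2* and *PSMA6*. The width of the base range rests on *PSMC1* (8.02 CPM), whose overlap and recurring words are given above. The next lowest tested base gene was *PSMC6* at 27.3 CPM, and the highest was *PSMD4* at 112 CPM.

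Of the factors that assemble the particle, most changed little. The core chaperones pair as *PSMG1* with *PSMG2* and *PSMG3* with *PSMG4*. Of the 4, 1 (25%) rose, near the 25.9% of protein-coding genes. *PSMG3* measured 17.6, 20.9 and 19.03 CPM against 31.6, 49.3 and 48.5 CPM (log2 fold change 1.17, SE 0.16, adjusted p = 0.000275). Its partner *PSMG4* measured 21.1, 19.6 and 21.7 CPM against 26.03, 29.4 and 29.2 CPM (log2 fold change 0.44, adjusted p = 0.00414). *PSMG1* (0.41, adjusted p = 0.0221) and *PSMG2* (0.25, adjusted p = 0.0860) were also under the fold criterion. None of the 3 base chaperones was called (0 by edgeR and 0 by DESeq2, 2 at an unadjusted p below 0.05). *PSMD5* had a log2 fold change of 0.37 (adjusted p = 0.0201), *PSMD10* of 0.30 (adjusted p = 0.0840) and *PSMD9* of 0.11 (adjusted p = 0.411), and the group's median of 0.30 became -0.03 when libraries were scaled by their size alone. *PSMD9* shares 28.8% of its transcript with a readthrough gene.

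Of the activators, which open the core without ubiquitin, and the inhibitor, 3 could be tested. *PSME3*, the nuclear activator, measured 123, 146 and 142 CPM against 270, 380 and 396 CPM (log2 fold change 1.35, SE 0.15). Its adjusted p of 8.57e-05 (edgeR) was the smallest of all proteasome genes. *PSMF1*, which encodes an inhibitor of the core, measured 64.7, 70.8 and 69.7 CPM against 87.7, 123 and 122 CPM (log2 fold change 0.70, adjusted p = 0.00155). That call was lost with protein-coding genes only (0.56), with the correction for GC content and length (0.57), with library size as the only scaling (0.36) and with the share of reads in no gene (0.21). *PSME4*, a large activator linked to histone turnover, measured 180, 172 and 180 CPM against 194, 191 and 163 CPM, with overlap between the groups and a log2 fold change of 0.04 (adjusted p = 0.763). *PSMB10*, the only inducible beta subunit with enough counts, was low in both groups, at 4.79, 4.66 and 3.78 CPM against 4.64, 5.47 and 6.02 CPM (log2 fold change 0.29, adjusted p = 0.169), and 56.1% of its transcript is shared with a readthrough gene that held 125 to 206 counts per library. Its sign turned when libraries were scaled by size alone.

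**Figure D4:**
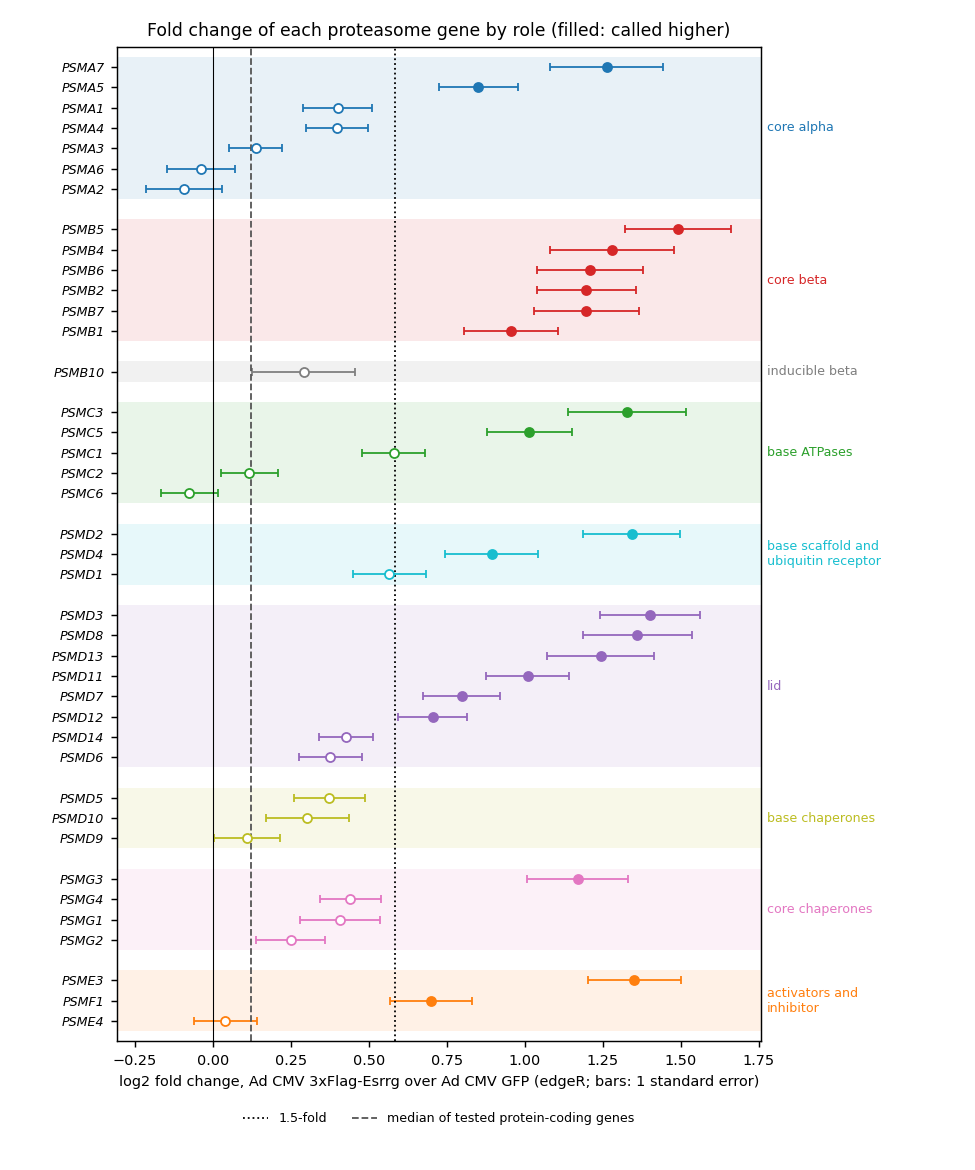
Log2 fold change of each tested proteasome gene (x axis; bars are 1 standard error from edgeR), by role; filled points were called higher, the dotted line marks 1.5-fold and the dashed line the median of tested protein-coding genes. All core beta genes lie right of the dotted line, and both alpha subunits and ATPases spread from about 0 to beyond 1.2; *PSMD9*, *PSMD10* and *PSMB10*, near the dashed line, changed sign with library size as the only scaling.

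The 8 genes that were not tested held almost no reads. *PSMB3*, *PSMB8*, *PSMB9* and *PSME1* had 0 counts in every library, where 3 counts would be 0.088 to 0.112 CPM. *PSMC4* had 0 or 1 count, *PSME2* 0 or 1, *PSMA8* 0 to 2 and *PSMB11* 0 to 4. *PSMA8* is a testis form of the alpha subunits and *PSMB11* a thymus form of the beta subunits, and of the 10 protein-coding genes nearest to each, 1 and 2 were at 3 counts or fewer. *PSMB3* and *PSMC4*, by contrast, belong to every proteasome, and 6 and 8 of their 10 nearest genes were at 3 counts or fewer as well. *PSME1* and *PSME2*, which form the interferon-responsive activator, lay in a run of 35 adjacent protein-coding genes on chromosome 14, from 24052009 to 24379604 (GRCh38), each with 3 counts or fewer in all libraries, *NEDD8* among them. *PSMB8* and *PSMB9*, the inducible forms of *PSMB5* and *PSMB6*, lay in another run of 35, on chromosome 6 from 31982057 to 32969094, with *TAP1*, *TAP2* and many HLA genes. *PSMC4* lay in a run of 12 on chromosome 19, from 39602524 to 40090943, with *FBL*, the ribosomal RNA methyltransferase fibrillarin, and *PSMB3* in a run of 6 on chromosome 17, from 38730341 to 38841438. In the whole table, 22.8% of 19920 protein-coding genes were at 3 counts or fewer. Of the words of 31 bases, 80.3% in *PSMB3*, 87.5% in *PSMB8* and 85.8% in *PSMB9* recurred on alternate contigs of the reference, and for *PSMC4*, *PSME1* and *PSME2* it was 0%, though 47.7% of those in *PSME2* recurred in the primary assembly. *B2M*, with 87.5% of its words on an alternate contig, held 775 to 1349 counts per library. Why these genes had no counts was not tested, and no level is reported for the immunoproteasome or for the activator made of *PSME1* and *PSME2*.

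The genes that were called had richer GC content, fewer annotated exon bases and higher levels than the others. The median GC content of the annotated exons was 50.2% in the 21 called genes and 40.3% in the 19 others. The median exon length, merged over all annotated transcripts of a gene, was 4.28 and 7.31 kb. Across the 40 genes, the log2 fold change correlated with GC content with r = 0.60 (Spearman's rho 0.66). The genes share the same 6 libraries and are not independent replicates. Over 13746 protein-coding genes the rho with GC content was 0.42. The mean level correlated with the log2 fold change too, with a rho of 0.63 over the 40 genes and 0.23 over protein-coding genes. This level was averaged over all 6 libraries, so a rise in the treated libraries itself adds to it. The correlation is therefore not independent of the change. The median of that level was 7.12 log2 CPM in the called genes and 5.43 in the others. *PSMA5* and *PSMD12* were called in spite of a GC content of 38.6% and 37.2%, while *PSMG4* (51.0%) and *PSMB10* (63.0%) were not. After a correction of each library for GC content and exon length, 22 genes were called higher (18.1% of protein-coding genes) and the median log2 fold change was 0.72, beside 0.05 over protein-coding genes.

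**Figure D5:**
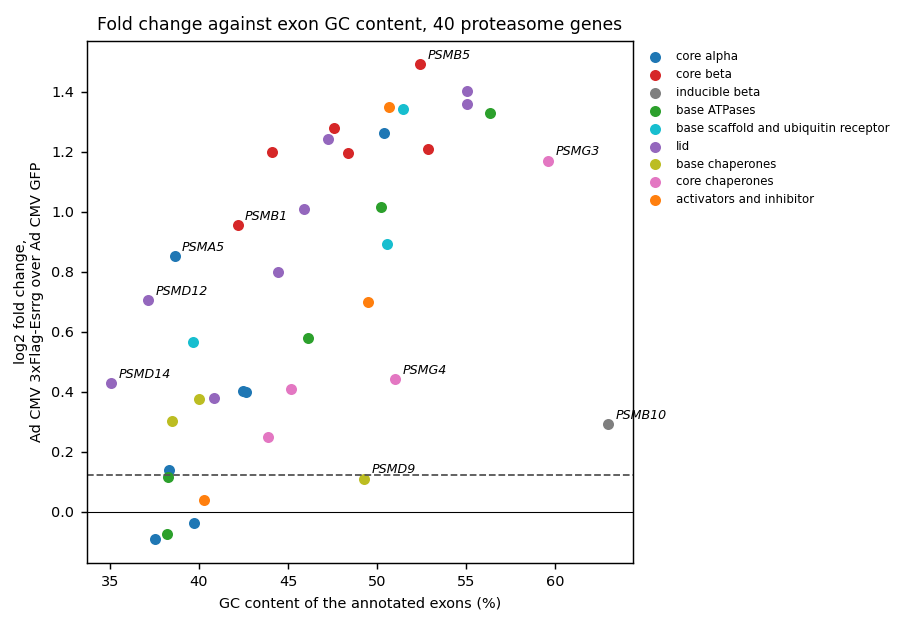
Log2 fold change of the 40 tested genes (y axis) against the GC content of their annotated exons (x axis, %), coloured by role; the dashed line is the median of tested protein-coding genes. Most genes above 45% GC lie above 0.5, and *PSMB10*, *PSMD9* and *PSMG4* are among those that do not.

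Genes that work with the proteasome but fall outside the naming rule were read from lists of pathway genes. Of 6 further subunits and assembly factors, 4 (66.7%) rose, against 25.9% of protein-coding genes. *ADRM1*, a ubiquitin receptor of the base, went from 17.04 ± 1.36 to 46.1 ± 11.7 CPM (log2 fold change 1.44), and *POMP*, which matures the core, from 78.9 ± 5.20 to 160 ± 33.0 CPM (1.02). *AKIRIN2*, which carries proteasomes into the nucleus, had a log2 fold change of 0.83 and *PAAF1*, a base chaperone, of 0.68, while *SEM1* (0.12) and *ECPAS* (0.02) did not pass. Of 9 genes of ubiquitin supply, 8 (88.9%) rose, against 25.9% of protein-coding genes. Among these were the ubiquitin genes *UBB* (log2 fold change 1.25) and *RPS27A* (0.89), the activating enzyme *UBA1* (1.09), the segregase *VCP* (1.06) and its cofactors *UFD1* and *NPLOC4* (0.70 each). *UBA6*, the alternative activating enzyme, had -0.18 (adjusted p = 0.201). Of 12 ubiquitin factors that bind the proteasome, 3 (25%) rose by 1.5-fold or more, near the 25.9% of protein-coding genes, among them the shuttle gene *UBQLN4* (1.00) and *MIDN* (0.95), which delivers substrates without ubiquitin. The deubiquitinases *USP14* (0.40) and *UCHL5* (0.42) passed the p-value alone.

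Among 10 regulators of subunit genes, *NFE2L1*, the factor that raises subunit genes when proteasome activity falls short, rose from 277 ± 13.3 to 479 ± 50.9 CPM (log2 fold change 0.79, SE 0.11, adjusted p = 0.000303). Its dimer partner *MAFK* (0.69) and *KEAP1* (0.81), the adaptor that marks NFE2L2 for degradation, also rose. These 3 of the 10 regulators (30%) were near the 25.9% of protein-coding genes called higher. *NFE2L2* measured 71.0 ± 1.96 against 52.8 ± 0.841 CPM (log2 fold change -0.43, adjusted p = 0.00208) and *DDI2*, the protease that activates NFE2L1, 43.3 ± 2.98 against 35.7 ± 2.67 CPM (-0.28, adjusted p = 0.0394), both under 1.5-fold. *NGLY1*, which removes sugars from NFE2L1, had 0.08. Genes of antigen processing and the interferon response were mixed. Of 13 that could be tested, 2 rose (*ISG15*, 1.14, and *IFI6*, 0.80), 2 fell (*ERAP2*, -0.72, and *OAS1*, -0.998) and the median log2 fold change was -0.21. The 15.4% in each direction stood beside 25.9% higher and 12.4% lower over protein-coding genes. Over all tested genes the shares were 17.3% higher and 16.8% lower. *TAP1* and *TAP2* were at 0, and *TAPBP* near 0.

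Other large complexes of the cytosol gave values to set beside these. Of the 8 genes of the TRiC chaperonin 4 rose (median log2 fold change 0.67), and of 12 tested genes of the translation factor eIF3 7 rose (0.64). In the COP9 signalosome, whose subunits are paralogs of the lid, 2 of 9 rose (0.49). These shares were 50%, 58.3% and 22.2%, against 25.9% of protein-coding genes. The 29 tested subunits of the full proteasome, core, base and lid, stood at 18 of 29 with a median of 0.89.  The difference between complexes was not tested. In these complexes too the log2 fold changes were uneven, from 0.20 (*CCT8*) to 1.21 (*CCT3*) in TRiC and from -0.20 (*COPS2*) to 1.32 (*GPS1*) in the signalosome.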

How the data were processed

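The authors' deposited table holds raw counts of reads per human gene (6 libraries, 67060 genes, 5 summary entries). Per the submitters' processing notes, CASAVA, Trim Galore 0.6.7, STAR 2.7.9a, HTSeq 0.11.3, DESeq2 and GRCh38 were used. The annotation release and strand setting are not given in the sources used here. Identifiers were matched to GENCODE release 44 (90.1% found). In R 4.3.3 with edgeR 4.0.16, genes passing filterByExpr (24500) were scaled by TMM and compared by the quasi-likelihood test, without covariates. Genes were called at a p below 0.05 after Benjamini-Hochberg adjustment and a change of 1.5-fold or more. The standard error of a log2 fold change was its size divided by the root of the F statistic. The summary entries (reads in no gene, ambiguous or with several alignments) stayed out of library sizes, and the report gives their shares. All libraries differed from each other by more than sampling noise, and the code was tested on simulated data. The proteasome genes and all lists were chosen with earlier results of these data known. Every proteasome gene was accounted for, with values per library for those called, at 0, or largest or smallest in their role, and the text names called genes of other lists and those whose role it explains, except a few that are not reported here. Alternatives were RLE and library-size scaling, DESeq2 1.42.0, other filters and fold cutoffs, a fit of the protein-coding genes, leaving out each library, a replicate block, a correction for GC content and length (mgcv 1.9.3), both, and a covariate fit with the share of reads in no gene. Words of 31 bases were searched in the reference with its 261 alternate contigs. Promoters came from RefSeq. Tables and plots used Python 3.11.15, pandas 2.3.3, numpy 2.4.6 and matplotlib 3.10.9.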

Additional observations from a re-analysis of the deposited data

How the results depend on the processing

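Between 15 and 30 proteasome genes were called higher, and 0 lower, under every alternative but the covariate fit (share of reads in no gene), which gave 5. Library size as the only scaling also lost the calls of *PSMA5* (0.52), *PSMD4* (0.55), *PSMD7* (0.46), *PSMD12* (0.38) and *PSMF1* (0.36), and protein-coding genes only those of *PSMD12* (0.57) and *PSMF1* (0.56). No called gene changed sign under any alternative run. With that covariate the median log2 fold change of all tested proteasome genes was 0.33, of core alpha genes 0.12, core beta 0.495, inducible beta (*PSMB10*) -0.0255, base ATPases 0.33, base scaffold and receptor 0.30, lid 0.47, base chaperones 0.0139, core chaperones 0.14, and activators and inhibitor 0.21. *PSMA6* became 0.11, *PSMC6* 0.0748, *PSMD10* -0.12 and *PSMG2* -0.098. Scaling by library size alone moved the median of all genes from -0.10 to -0.42 and that of the proteasome genes to 0.37. It gave 0.0708 for core alpha, -0.0416 for *PSMB10*, 0.25 for base ATPases, 0.55 for base scaffold and receptor, 0.57 for the lid, -0.0311 for base chaperones, 0.095 for core chaperones and 0.36 for activators and inhibitor; *PSMA3* became -0.18, *PSMC2* -0.20, *PSMD9* -0.21, *PSMD10* -0.0311, *PSME4* -0.27 and *PSMG2* -0.0822. That shift follows from the scaling; the cause of the others was not tested. With protein-coding genes only, the core alpha median was 0.26, *PSMC2* -0.0191, *PSMD9* -0.0257 and *PSME4* -0.0922. DESeq2 gave 0.0031 for *PSMA2*, 0.053 for *PSMA6* and 0.0148 for *PSMC6*, and RLE size factors 0.0398 for *PSMA6* and 0.0015 for *PSMC6*. The correction for GC content and length gave 0.53 for base chaperones, -0.11 for *PSMB10*, 0.17 for *PSMA2*, 0.15 for *PSMA6*, 0.16 for *PSMC6* and -0.0175 for *PSMD9*.

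Leaving out each library in turn gave 21 to 27 genes called higher, beside 22.6% to 34.1% of protein-coding genes. The medians were 0.63 to 0.93 (all tested), 0.34 to 0.58 (core alpha), 0.19 to 0.49 (*PSMB10*), 0.54 to 0.77 (base ATPases), 0.19 to 0.54 (base chaperones) and 0.37 to 0.62 (core chaperones). *PSMA2* ranged from -0.13 to 0.0539 and *PSMA6* from -0.0646 to 0.0174. Replicate numbers 3 and 4 are shared by the groups, but no label says that they mark a shared batch, so the numbers were not taken as pairs. The deviations of same-numbered libraries correlated at 0.08 and -0.0001, too few values to decide whether they were paired. With the replicate block, which leaves 1 residual degree of freedom, 23 genes were called higher, beside 28.7% of protein-coding genes. Replicates 1 and 2 each occur in only 1 group, so the block rests the comparison on replicates 3 and 4 alone. With the replicate block on counts also corrected for GC content and length, 26 genes were called higher, beside 19.6% of protein-coding genes. That fit gave medians of 0.54 (core alpha), 0.63 (base chaperones) and -0.0233 (*PSMB10*), and 0.28 for *PSMA2*, 0.092 for *PSMA6*, 0.13 for *PSMC6* and -0.0967 for *PSMD9*. Adding the counts of identifiers at alternate loci was not run, since no table used here pairs them with symbols. Fold changes of the 8 genes with 0 or few reads could not be measured at this depth.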

Other observations

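Processed pseudogenes and antisense or divergent transcripts named after proteasome genes were looked at apart from the parent genes. Of 44 pseudogenes, 13 had 0 counts in all libraries and 8 could be tested. Of these, 2 fell in the edgeR test (*PSMA1P1*, log2 fold change -0.85, and *PSME2P4*, -0.91), the others were not called, and the median was -0.53. Of 7 long noncoding RNAs, 5 were tested, and 2 fell: *PSMD6-AS2* (-0.93) and *PSMD14-DT* (-0.83). Both lie beside lid genes whose own log2 fold changes were 0.38 and 0.43. Over all tested genes, 16.8% were called lower and the median log2 fold change was -0.10. The counts of pseudogenes and noncoding RNAs are too small to compare with that share. Reads shared between a pseudogene and its parent align to several places, and whether the counting used strand is not given in the sources used here; their part in these values was not tested. The protein-coding neighbours in name, *PSMC3IP* (-0.02) and *PSME3IP1* (0.56), were not called.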
